A study of Rattus norvegicus with 6 samples.

Results

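The genes described here are those of the WNT signalling pathway: its ligands, receptors, secreted antagonists, R-spondin branch, intracellular inhibitors and nuclear effectors. They were chosen by symbol from the protein-coding genes of the count tables, and 60 of 30945 listed genes were members. Primary rat vascular smooth muscle cells, which give vessel walls their contractility, were sequenced as 3 negative control and 3 siRNA_ANK libraries. The series title calls the treated cells ANK-deficient. No other treatment is named for any of the 6 libraries, and no animal age, strain, siRNA dose or time. Separate animals or cultures are not stated either, so the p-values cover just the variation among these samples, which may be technical.

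WNT proteins are secreted, lipid-modified ligands that bind frizzled receptors. With the co-receptors LRP5 or LRP6 they stop a destruction complex built on axin, so that beta-catenin builds up and acts with TCF and LEF factors on target genes. Other WNT signals run through ROR receptors, cell polarity proteins and calcium without beta-catenin. In the vessel wall the pathway is known for effects on smooth muscle growth, migration and calcification.

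Library totals ranged from 15641259 to 17441548 counts. Ankh, the gene of the progressive ankylosis protein that is also called ANK, was at 338, 351 and 367 CPM (library-size-scaled counts, TMM-adjusted) in the negative controls and at 84.9, 76.7 and 120 CPM in siRNA_ANK. All 7 smooth muscle markers and 6 of 7 adventitial fibroblast markers were called higher in siRNA_ANK, where 19.9% of all genes tested were. Their summed levels were 2594 to 3606 against 5153 to 6171 CPM and 222 to 255 against 390 to 435 CPM. Endothelial markers summed to 0.749 to 1.07 and 0.899 to 1.58 CPM, with Cdh5, Kdr and Emcn at 0 counts, and leukocyte markers to 0.900 to 1.12 and 0.570 to 1.32 CPM, with Ptprc at 0 counts. Epithelial and mesothelial markers, 1 of them called higher, summed to 11.17 to 11.48 and 12.35 to 15.53 CPM. Schwann cell markers summed to 7.65 to 8.62 and 6.05 to 8.74 CPM. The part of these marker differences in the WNT results was not tested, and in bulk RNA fewer cells of a type and less RNA per cell cannot be told apart. In a principal component analysis, the first axis placed negative control replicate 2 and, among the treated libraries, replicate 3 closest to the opposite group. Among the 24 WNT genes that passed the test, siRNA_ANK replicate 3 was the library of its group nearest to the controls for 17, and negative control replicate 2 the one nearest to siRNA_ANK for 13.

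WNT pathway genes moved in both directions, with more rises than falls. Of the 60 members, 34 passed the filter on low counts, of which 17 rose and 7 fell with siRNA_ANK (adjusted p under 0.05, edgeR quasi-likelihood test). That is 70.6% of the members tested, where 40.1% of all 13016 genes tested were called, 19.9% higher and 20.2% lower. Changes of at least 2-fold were found for 10 members that rose and 3 that fell, against 4.56% and 2.58% of all genes tested. The groups did not overlap for 25 members (73.5%), 18 higher and 7 lower, against 51.1% of all genes tested. The median log2 fold change was 0.37 over the 34 members and 0.01 over all genes tested. Without negative control replicate 2 and siRNA_ANK replicate 3, 18 members were higher and 7 lower. The 26 members not tested had 0 to 40 counts over the 6 libraries, and 16 of them had fewer than 5. For the 6 members at 0 counts in every library, Wnt3a, Wnt7b, Wnt8a, Wnt10a, Fzd10 and Rspo4, 0 of 100388217 counts allows a level of up to 0.0299 CPM (3 counts, counting error only).

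**Figure D1:**
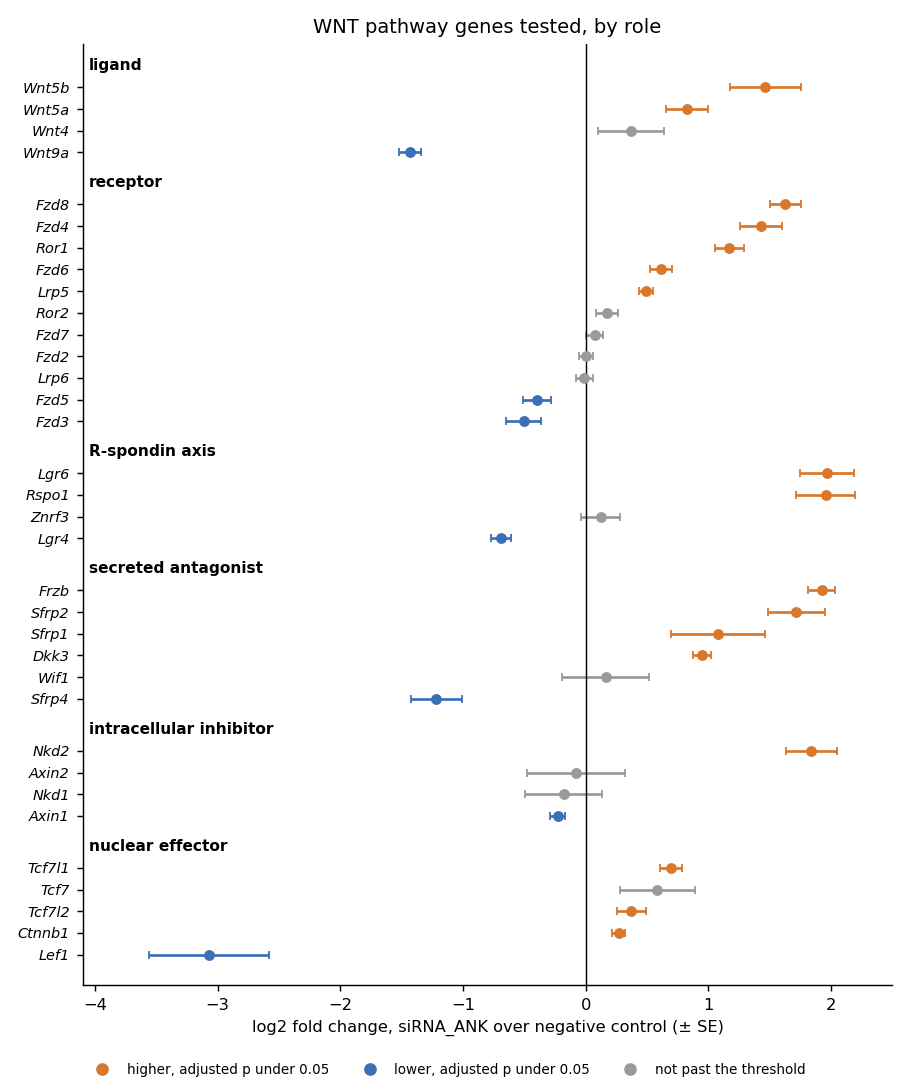
Log2 fold change of siRNA_ANK over negative control (x axis) for the 34 WNT pathway genes tested, grouped by role, with the SE as bars (3 libraries a group). Orange and blue points passed an adjusted p under 0.05, higher or lower; the points range from Lef1 at -3.07 to Lgr6 and Rspo1 at 1.96, and each role with calls holds genes on both sides of 0.

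The ligand that dominated the controls fell, while Wnt5a and Wnt5b, best known for signalling without beta-catenin, rose. Wnt9a, a ligand known from joint formation in mice, was the most abundant ligand gene per transcript length. The files place it (ENSRNOG00000003066) at chromosome 10, 44094140 to 44121133, plus strand, in build mRatBN7.2, which also holds for the other gene positions below. Wnt9a was at 27.3, 27.4 and 29.6 CPM in the negative controls and at 9.89, 10.48 and 10.8 CPM in siRNA_ANK. The libraries of each group lay close together and the groups did not overlap; Wnt9a fell 2.70-fold (log2 fold change -1.43 ± 0.09, SE, adjusted p = 3.30e-08).

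Wnt5a, the best-known ligand of ROR receptors, was at 3.32, 4.09 and 4.37 CPM in the controls and at 6.18, 7.07 and 7.66 CPM in siRNA_ANK. All siRNA_ANK libraries were above all controls, and Wnt5a rose 1.78-fold (log2 fold change 0.83 ± 0.17, adjusted p = 0.00134). Its close relative Wnt5b was at 0.900, 1.15 and 1.0 CPM in the controls and at 3.06, 3.35 and 2.03 CPM in siRNA_ANK, 2.76-fold higher (adjusted p = 0.000945). SiRNA_ANK replicate 3 was the lowest of its group but stayed above the controls. The gene Fbxl14 overlaps Wnt5b on the other strand and had 3044 counts against 191 for Wnt5b; whether reads were counted by strand is not given in the sources used here. Fbxl14 itself was at 30.1 and 30.7 CPM (log2 fold change 0.03, adjusted p = 0.811). Wnt4, a ligand known from kidney and gonad development, was at 1.68 ± 0.242 and 2.18 ± 0.491 CPM (SD, n = 3) and did not pass the test (adjusted p = 0.297).

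The other 15 ligand genes were not tested. Wnt2b had 11 counts over the controls and 29 over siRNA_ANK, Wnt2 had 28 and 11, and the rest had 0 to 7 counts in all. Wnt2b overlaps St7l on the other strand, which had 2134 counts.

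Per transcript length (TPM, counts per gene length scaled to a common total in each library), the summed level of the ligand genes was 30.2, 32.7 and 33.8 in the controls and 22.7, 20.7 and 21.6 in siRNA_ANK. The sum was lower in all siRNA_ANK libraries than in any control. Wnt9a made up 76.0%, 70.7% and 74.8% of it in the controls and 36.6%, 42.2% and 41.3% in siRNA_ANK. The share of Wnt5a went from 5.89% ± 0.539 to 15.4% ± 1.98 and that of Wnt5b from 3.95% ± 0.391 to 16.0% ± 4.32 (SD, n = 3), and both sets of shares did not overlap between the groups. Wnt4 held 12.1% ± 1.57 and 22.8% ± 4.31, and in siRNA_ANK it stood above Wnt5a in each library, an order that turned without the scaling by length, while the shares of Wnt5a and Wnt5b overlapped. No p is given for such shares, since exact permutation with 3 libraries a group gives no p under 0.1.

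**Figure D2:**
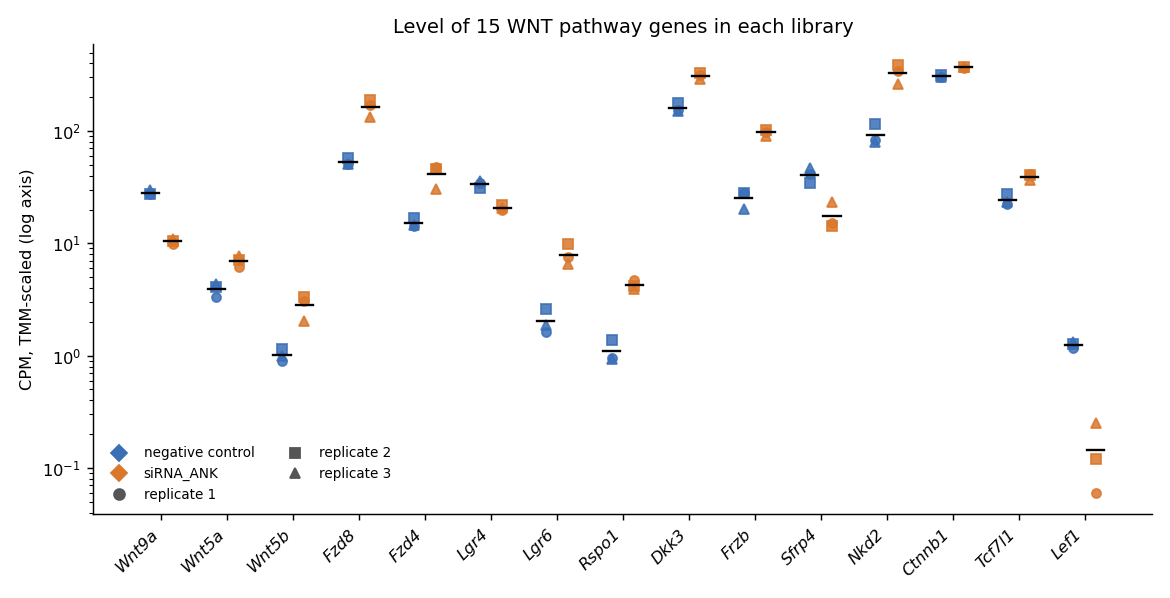
Level of 15 WNT pathway genes in each library (y axis, CPM on a log scale), with negative controls in blue, siRNA_ANK in orange, a marker shape per replicate and the group mean as a bar. Wnt9a, Lgr4, Sfrp4 and Lef1 lie lower in siRNA_ANK and the other 11 higher. All 15 were picked from called members whose groups do not overlap, so the lack of overlap follows from the choice. Among all genes tested, the groups did not overlap for 51.1%.

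Among receptors, Fzd8, Fzd4, Fzd6, Lrp5 and Ror1 rose and Fzd3 and Fzd5 fell, 7 of 11 genes tested, while Fzd2, the most abundant, did not pass the test. Those 7 are 63.6% of the receptor genes tested, where 40.1% of all genes tested were called. Fzd8, on chromosome 17 from 57314450 to 57320650, was at 50.8, 57.5 and 50.5 CPM in the controls and at 169, 189 and 133 CPM in siRNA_ANK. The lowest siRNA_ANK library, replicate 3, was still well above the highest control, and Fzd8 rose 3.09-fold (log2 fold change 1.63 ± 0.13, adjusted p = 2.30e-05). Fzd4, which also serves as the receptor of the protein norrin in retinal vessels, was at 14.3, 16.8 and 14.6 CPM in the controls and at 47.4, 45.8 and 30.2 CPM in siRNA_ANK, 2.70-fold higher (adjusted p = 0.000223). Fzd6, a frizzled known from hair and tissue polarity, was at 62.9, 52.1 and 57.4 CPM in the controls and at 88.3, 98.5 and 77.6 CPM in siRNA_ANK, 1.53-fold higher (adjusted p = 0.000168). In both genes siRNA_ANK replicate 3 was the lowest of its group, and the groups did not overlap.

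Fzd3 and Fzd5 were the frizzled genes that fell. Fzd3, needed for axon guidance in mice, was at 7.65, 7.77 and 7.25 CPM in the controls and at 5.22, 5.03 and 5.76 CPM in siRNA_ANK, 1.42-fold lower (adjusted p = 0.0115). Fzd5, a receptor for several ligands, was at 23.9, 19.8 and 18.9 CPM and at 16.6, 13.7 and 17.2 CPM, 1.32-fold lower (adjusted p = 0.0128). The groups of Fzd5 lay close to each other, and the call did not hold when negative control replicate 1 (adjusted p = 0.0895) or siRNA_ANK replicate 2 (adjusted p = 0.0574) was left out. Fzd2, the most abundant frizzled gene, was at 309, 300 and 317 CPM in the controls and at 303, 324 and 301 CPM with the siRNA (log2 fold change 0.00 ± 0.05, adjusted p = 0.977). Its groups overlapped, as did those of Fzd7, at 66.2 ± 5.20 and 69.7 ± 1.93 CPM (adjusted p = 0.419).

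The co-receptor gene Lrp5 was at 61.3, 60.5 and 60.6 CPM in the controls and at 86.9, 84.9 and 85.2 CPM in siRNA_ANK. The libraries of each group were almost level, and Lrp5 rose 1.41-fold (log2 fold change 0.49 ± 0.06, adjusted p = 8.34e-06). Its relative Lrp6 was at 95.7 ± 2.17 and 94.9 ± 9.34 CPM and did not pass the test (adjusted p = 0.921). Ror1, a receptor tyrosine kinase-like protein that binds WNT5A, was at 7.59, 6.28 and 6.50 CPM in the controls and at 15.9, 14.9 and 15.1 CPM in siRNA_ANK, 2.25-fold higher without overlap (adjusted p = 2.93e-06). Ror2, its relative, was at 21.0 ± 1.71 and 23.7 ± 1.07 CPM; its groups touched without overlap and it did not pass the test (adjusted p = 0.140). Whether Lrp5 and Lrp6, or Ror1 and Ror2, differed from each other in their change was not tested.

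Per transcript length, the summed level of the frizzled genes was 345, 342 and 351 TPM in the controls and 436, 460 and 390 TPM in siRNA_ANK. The sum was higher in all siRNA_ANK libraries. Fzd2 held 62.9%, 61.7% and 64.5% of it in the controls and 48.7%, 49.1% and 52.9% in siRNA_ANK, while its own level was 218 ± 7.72 and 215 ± 10.1 TPM. The share of Fzd8 went from 6.99% ± 0.574 to 17.04% ± 1.75 and that of Fzd4 from 3.47% ± 0.333 to 7.37% ± 1.32. In the controls Fzd8 ranked below Fzd2, Fzd6 and Fzd7, and in siRNA_ANK only Fzd2 ranked above it, with Fzd8 above Fzd6 in each library. Fzd6 and Fzd7 held 11.2% ± 0.989 and 11.1% ± 0.949 in the controls and did not differ beyond their spread.

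**Figure D3:**
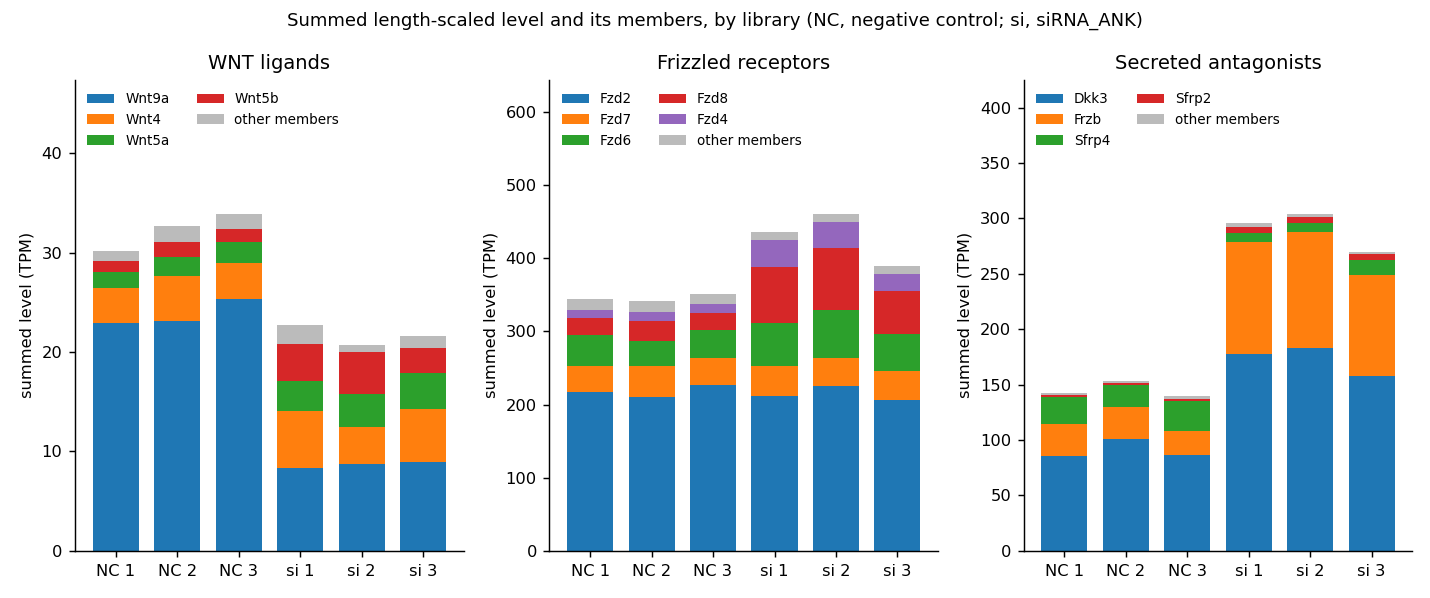
Summed length-scaled level (y axes, TPM, starting at 0) of the WNT ligand, frizzled and secreted antagonist genes in each library, split by member. The ligand sum drops with Wnt9a, the frizzled sum grows with Fzd8 and Fzd4 while the Fzd2 segments of the groups overlap in size, and the antagonist sum grows with Dkk3 and Frzb while Sfrp4 shrinks.

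Genes of the R-spondin branch, which keeps frizzled receptors on the cell surface, changed in opposite directions. Lgr6, a receptor for R-spondins on chromosome 13 (46424383 to 46543945), was at 1.63, 2.59 and 1.87 CPM in the controls and at 7.49, 9.82 and 6.52 CPM in siRNA_ANK. The groups did not overlap and Lgr6 rose 3.90-fold (log2 fold change 1.96 ± 0.22, adjusted p = 7.25e-06). Rspo1, which encodes a secreted R-spondin, was at 0.956, 1.38 and 0.937 CPM in the controls and at 4.68, 4.19 and 3.93 CPM in siRNA_ANK, 3.88-fold higher (adjusted p = 1.82e-05).

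Lgr4, the most abundant R-spondin receptor gene, fell. It was at 34.1, 31.2 and 35.5 CPM in the controls and at 19.96, 21.7 and 20.8 CPM in siRNA_ANK, 1.61-fold lower with no overlap (log2 fold change -0.69 ± 0.08, adjusted p = 1.32e-05). Per transcript length Lgr4 was at 27.2 ± 1.99 TPM against 0.913 ± 0.223 TPM for Lgr6 in the controls, and at 16.6 ± 0.702 against 3.51 ± 0.770 TPM in siRNA_ANK, so that Lgr4 stayed the more abundant of the pair in both groups. Znrf3, a ubiquitin ligase that removes frizzled receptors from the membrane, was at 5.29 ± 0.398 and 5.76 ± 0.591 CPM (adjusted p = 0.573). Rspo3 had 6 counts over the controls and 21 over siRNA_ANK and was not tested.

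Of 6 secreted antagonist genes tested, Frzb, Dkk3, Sfrp1 and Sfrp2 rose, Sfrp4 fell and Wif1 did not pass the test. Calls were thus made for 83.3% of these 6 genes, against 40.1% of all genes tested. Frzb encodes a secreted frizzled-related protein that binds WNT ligands, and lies on chromosome 3 from 65332277 to 65365208. It was at 27.9, 28.3 and 20.2 CPM in the controls and at 98.4, 102 and 90.5 CPM in siRNA_ANK. The lowest siRNA_ANK library was more than 3 times the highest control, and Frzb rose 3.80-fold (log2 fold change 1.93 ± 0.11, adjusted p = 2.29e-07). Dkk3, a divergent dickkopf protein whose effect on WNT signalling is disputed, was at 153, 179 and 152 CPM in the controls and at 317, 329 and 288 CPM in siRNA_ANK, 1.93-fold higher without overlap (adjusted p = 2.21e-07).

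Sfrp1 and Sfrp2, further frizzled-related proteins, were low. Sfrp2 was at 1.18, 1.09 and 1.12 CPM in the controls and at 3.66, 3.53 and 4.05 CPM in siRNA_ANK, 3.29-fold higher (adjusted p = 4.24e-05). Sfrp1 was at 0.338, 0.921 and 0.937 CPM and at 1.74, 1.74 and 1.14 CPM, 2.11-fold higher (adjusted p = 0.0361). Sfrp1 did not pass with DESeq2 (adjusted p = 0.0969), nor with edgeR after leaving out negative control replicate 1, siRNA_ANK replicate 1 or siRNA_ANK replicate 2 (adjusted p = 0.160, 0.119 and 0.104). Without negative control replicate 1 its log2 fold change in edgeR was 0.72 in place of 1.08. Sfrp4, a frizzled-related protein also known for an effect on phosphate handling, went the other way. It was at 41.3, 34.2 and 46.5 CPM in the controls and at 15.05, 14.1 and 23.4 CPM in siRNA_ANK, 2.32-fold lower with no overlap (log2 fold change -1.22 ± 0.21, adjusted p = 0.00294). Wif1, which encodes a secreted WNT-binding inhibitor, was at 1.03 ± 0.131 and 1.16 ± 0.450 CPM (adjusted p = 0.750).

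The summed level of the antagonist genes per length was 142, 153 and 139 TPM in the controls and 296, 304 and 270 TPM in siRNA_ANK. Every siRNA_ANK library was above every control. The share of Frzb in this sum went from 18.1% ± 2.61 to 34.0% ± 0.389 and that of Sfrp4 from 16.6% ± 3.38 to 3.53% ± 1.22 (SD, n = 3). In the controls the shares of Frzb and Sfrp4 did not differ beyond their spread. Dkk3, whose effect on WNT signalling is disputed, held the largest part of the sum, 62.8% ± 2.67 and 59.6% ± 1.03.

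Among intracellular inhibitors Nkd2 rose strongly, while Nkd1 and Axin2 were low and did not pass the test. Naked cuticle proteins such as those of Nkd1 and Nkd2 bind dishevelled, the first relay below the receptors, and axins are the scaffolds of the destruction complex. Nkd2, on chromosome 1 from 29441328 to 29470821, was at 83.8, 115 and 79.3 CPM in the controls and at 346, 384 and 264 CPM in siRNA_ANK. Negative control replicate 2 and siRNA_ANK replicate 3 were the libraries nearest to the other group, without overlap, and Nkd2 rose 3.58-fold (log2 fold change 1.84 ± 0.21, adjusted p = 0.00133). Without both of these libraries its log2 fold change was 2.16. Nkd1 was at 1.24, 0.921 and 1.37 CPM and at 1.08, 1.08 and 0.950 CPM (log2 fold change -0.18 ± 0.32, adjusted p = 0.690). Axin1 was at 62.3, 61.7 and 64.2 CPM in the controls and at 55.5, 51.6 and 53.6 CPM in siRNA_ANK, 1.17-fold lower without overlap (adjusted p = 0.00885).

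Axin2 and Nkd1 are textbook feedback targets of beta-catenin, and their promoters are shown beside that of Nkd2 because Nkd2 stood far above both in level and rose, while neither of them passed the test. Each sequence runs from 250 bases before to 50 bases after the start of the gene, 5′ to 3′, from RefSeq on build GRCr8. Capitals mark matches to the TCF/LEF core, spelled CTTTG followed by AA, by AT, by TA or by TT, on either strand.
Axin2, chr10:94398535-94398834, plus strand: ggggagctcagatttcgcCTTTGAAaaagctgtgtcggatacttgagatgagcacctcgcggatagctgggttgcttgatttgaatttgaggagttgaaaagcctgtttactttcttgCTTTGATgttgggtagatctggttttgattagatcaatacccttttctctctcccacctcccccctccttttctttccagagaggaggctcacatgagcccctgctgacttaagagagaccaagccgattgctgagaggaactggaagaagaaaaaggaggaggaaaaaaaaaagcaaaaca
Nkd1, chr19:34722797-34723096, minus strand: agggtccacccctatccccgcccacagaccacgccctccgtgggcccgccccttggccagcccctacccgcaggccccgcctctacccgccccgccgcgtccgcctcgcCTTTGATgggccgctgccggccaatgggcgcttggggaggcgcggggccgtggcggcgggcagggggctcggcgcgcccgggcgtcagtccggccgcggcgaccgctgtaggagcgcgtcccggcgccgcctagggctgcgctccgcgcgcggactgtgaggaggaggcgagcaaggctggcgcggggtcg
Nkd2, chr1:31272282-31272581, plus strand: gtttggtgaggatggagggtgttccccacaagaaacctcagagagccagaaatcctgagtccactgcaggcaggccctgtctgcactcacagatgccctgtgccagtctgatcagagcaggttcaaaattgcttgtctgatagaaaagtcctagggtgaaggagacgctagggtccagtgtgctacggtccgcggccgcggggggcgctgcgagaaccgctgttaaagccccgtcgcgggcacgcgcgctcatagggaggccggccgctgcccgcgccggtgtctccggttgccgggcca
The Axin2 window held 2 matches, with first bases at -232 and -132 from the start, and the Nkd1 window 1 match at -141. The Nkd2 window held none. Axin2 had 45.7% G and C, Nkd1 79.3% and Nkd2 62.7%, against a median of 51.7% over all promoters in the table. Of 41 members with a promoter there, 7 (17.1%) held a match, as did 17.1% of all 33469 promoters. Among genes tested, 4 of 23 member promoters (17.4%) and 10.7% of all 9009 held one. A promoter was present for 12 of the 17 members that rose and for 4 of the 7 that fell. None of these promoters held a match in the window. A match is a description of the sequence and not a binding site.

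Of the 5 genes at the nuclear end of the pathway, Ctnnb1, Tcf7l1 and Tcf7l2 rose, Lef1 fell and Tcf7 did not pass the test. Calls were thus made for 80% of these 5 genes, against 40.1% of all genes tested. Ctnnb1, the gene of beta-catenin, was at 301, 317 and 305 CPM in the controls and at 365, 374 and 373 CPM in siRNA_ANK. The groups were tight and separate, with a rise of 1.2-fold (log2 fold change 0.27 ± 0.05, adjusted p = 0.000772). Tcf7l1, a TCF factor that mostly represses, was at 22.4, 27.3 and 23.2 CPM in the controls and at 41.1, 40.6 and 36.4 CPM in siRNA_ANK, 1.62-fold higher (adjusted p = 2.53e-05). Tcf7l2 was at 14.5, 11.5 and 13.2 CPM and at 18.2, 17.5 and 14.9 CPM, 1.29-fold higher (adjusted p = 0.0194). The groups of Tcf7l2 came close to each other, and the call did not hold in 4 of the 6 fits that left out a library: negative control replicate 2 (adjusted p = 0.0895) or 3 (0.0509), and siRNA_ANK replicate 1 (0.0978) or 2 (0.0598). Tcf7 was at 1.29, 2.07 and 0.875 CPM and at 2.10, 2.28 and 2.03 CPM and did not pass the test (adjusted p = 0.147), but did without negative control replicate 2 (adjusted p = 0.0339).

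Lef1 lay below the abundance set for full description and was included after its values were seen. It encodes a TCF/LEF factor that activates targets with beta-catenin and is a target itself. Lef1 had 21, 22 and 21 counts in the controls and 1, 2 and 4 counts in siRNA_ANK. The counts of the groups were far apart, and Lef1 fell (log2 fold change -3.07 ± 0.49, adjusted p = 0.000180). It passed the filter on low counts only through the controls, where it was high, and at its siRNA_ANK level it would not have been tested. Its size rests on few counts: without siRNA_ANK replicate 3, which held 4 of the 7 counts of its group, the log2 fold change was -3.70, and over each library left out in turn it ran from -3.70 to -2.71. Its promoter is shown as that of the member with the largest fall.
Lef1, chr2:222340463-222340762, plus strand: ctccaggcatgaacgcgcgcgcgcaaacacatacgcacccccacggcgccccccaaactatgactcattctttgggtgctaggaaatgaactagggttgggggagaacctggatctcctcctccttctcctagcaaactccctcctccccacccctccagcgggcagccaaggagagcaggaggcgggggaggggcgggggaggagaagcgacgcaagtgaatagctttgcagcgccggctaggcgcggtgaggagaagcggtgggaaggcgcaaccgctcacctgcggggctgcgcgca
This window held no match to the TCF/LEF core in any of its spellings, although CTTTG alone occurs in it. It had 64.7% G and C.

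Among the TCF/LEF genes, Tcf7l1 held most of the summed level per length, 70.2% ± 3.30 in the controls and 75.8% ± 0.474 in siRNA_ANK. The share of Lef1 was 2.28% ± 0.175 and 0.181% ± 0.137. The sum itself was 33.9, 37.6 and 34.2 TPM in the controls and 55.0, 53.9 and 47.1 TPM in siRNA_ANK, higher in each siRNA_ANK library.

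Members known as feedback genes or targets of beta-catenin did not move together. Axin2 had 25, 13 and 19 counts in the controls and 25, 19 and 8 in siRNA_ANK (log2 fold change -0.08 ± 0.40, adjusted p = 0.895), and its groups overlapped. At these counts only a large difference could be seen. Rnf43, a partner of Znrf3 in receptor removal, had 0, 0 and 1 counts in the controls and 1, 12 and 2 in siRNA_ANK, so that 1 library held most of them. Lgr5 had 2, 1 and 1 against 9, 5 and 0 counts, and Notum, an enzyme that removes the lipid of WNT proteins, had 1 count in all. Lef1 fell, Nkd2 rose, and Nkd1, Znrf3, Tcf7 and Axin2 did not pass the test.

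**Figure D4:**
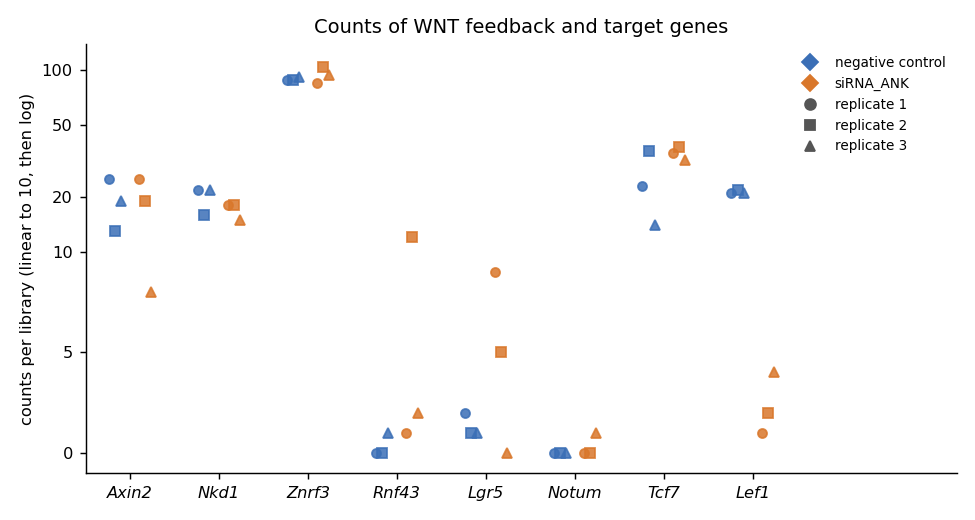
Counts per library (y axis, linear to 10 and logarithmic above) of 8 WNT feedback and target genes, with negative controls in blue, siRNA_ANK in orange and a marker shape per replicate. Lef1 is separated between the groups, at 21 to 22 against 1 to 4 counts, whereas Axin2, Nkd1 and Znrf3 overlap. Nkd2, which rose, is not among the 8 genes drawn.

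The wider pathway was read from 3 further gene lists. Of 43 partner genes tested (secretion, destruction complex, co-repressors and receptor modulators), 7 were higher and 10 lower, 39.5% of those tested and close to the 40.1% of all genes. Their median log2 fold change was -0.03. Tspan12, a tetraspanin that works with Fzd4 and Lrp5 in the norrin receptor, went from 16.3 ± 0.986 to 45.9 ± 4.37 CPM (SD, n = 3), a 2.81-fold rise (edgeR adjusted p = 1.67e-08). The norrin gene Ndp itself had 2 counts in all libraries. Reck, which with Adgra2 forms a receptor complex for WNT7 ligands, rose 1.49-fold to 128 ± 16.2 CPM, while Wnt7a and Wnt7b had 1 and 0 counts. Cthrc1, a secreted protein that aids WNT and ROR2 binding, rose 1.90-fold. The co-repressor gene Tle2 fell 2.70-fold from 5.27 ± 0.413 to 1.95 ± 0.390 CPM and Jup, the gene of the beta-catenin relative plakoglobin, 1.28-fold. Wls and Porcn, needed to release and lipidate WNT ligands, were at 812 ± 16.4 and 754 ± 32.9 CPM and at 9.73 ± 1.05 and 10.8 ± 0.458 CPM and did not pass the test (adjusted p = 0.125 and 0.373).

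Of 31 polarity and calcium branch genes tested, 13 were higher and 6 lower (61.3%, against 40.1% of all genes tested). Their median log2 fold change was 0.09. Plcb4, a phospholipase, rose from 45.5 ± 3.48 to 81.9 ± 0.824 CPM and Rock2, a kinase below RhoA, from 291 ± 10.4 to 422 ± 46.8 CPM. Ppp3ca, a catalytic subunit gene of calcineurin, rose 1.49-fold. Ppp3cb, also a catalytic subunit gene, was at 66.3 ± 2.16 and 68.9 ± 2.49 CPM and did not pass the test (edgeR adjusted p = 0.493). The polarity genes Vangl1 and Ptk7 fell 1.42-fold and 2.34-fold. Of 35 reported WNT target genes tested, 13 were higher and 11 lower (68.6%, against the same 40.1%). The median log2 fold change of these targets was 0.14. Ephb3, an ephrin receptor, rose 3.35-fold, the growth factor genes Fgf18 and Bmp4 6.91-fold and 2.13-fold, and Dact1, a dishevelled-binding protein, 2.06-fold, while the cation channel gene Trpm4 fell 1.60-fold. Of the target genes not tested, Sp5 was at 0 counts in each library.

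**Figure D5:**
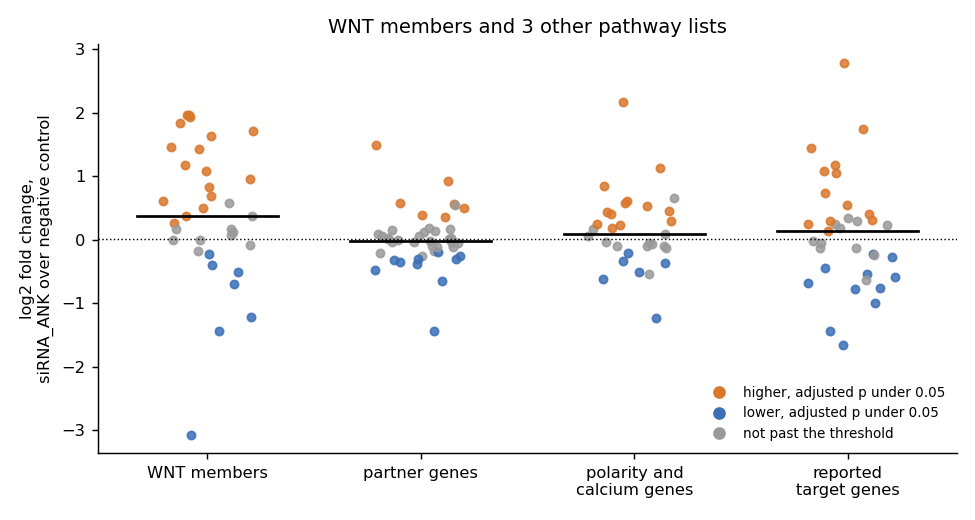
Log2 fold change of siRNA_ANK over negative control (y axis) for the tested genes of the WNT members and of 3 further pathway lists, with a bar at the median of each list and a dotted line at the median of all genes tested (0.01). Points are spread sideways for legibility only; the medians are 0.37 for the members, -0.03 for partner genes, 0.09 for polarity and calcium genes and 0.14 for reported targets.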

How the data were processed

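The deposited files hold raw counts per gene, made by the authors with 1 file per library; the submitters' processing notes name build mRatBN7.2 and the tools DESeq2 and featureCounts (version 1.5.0-p3). RNA was total RNA from a GeneJet kit, per the labels' protocols. Aligner and strand setting: not given in the sources used here, so for genes that overlap or lie antisense the source of a read cannot be told apart. Kept in the table were 385 loci without symbol or Ensembl identifier, with 0.306% to 0.339% of the counts.

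The analysis used R 4.3.3 and edgeR 4.0.16: filterByExpr (minimum count 10, minimum total count 15), TMM factors of 0.979 to 1.02, and a two-sided quasi-likelihood test (robust) with Benjamini-Hochberg adjustment over 13016 genes. The SE is the size of the log2 fold change over the square root of F. TPM was computed from the counts and gene lengths in the files, without TMM factors. The steps were tested on simulated data. The chi-square of replicate pairs per degree of freedom was 2.91 to 13.1, more than sampling noise gives for each pair. The alternatives were DESeq2 1.42.0, limma-voom (limma 3.58.1), other scalings and filters, a replicate block and leaving out libraries.

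The members and lists were chosen with earlier results of these data known. Full values are given for called members with groups that do not overlap and a mean of at least 1 CPM (23 genes) and for the most abundant member of each role; other members named were chosen after their values were seen. Lists give up to 5 called genes by smallest adjusted p; other list genes named were chosen after their values were seen. Of the list entries, 53 of 57 partner, 39 of 41 polarity and 52 of 54 target genes were matched; promoters were matched by symbol.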

Additional observations from a re-analysis of the deposited data

How the results depend on the processing

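The counts of all genes, WNT members and partner genes called stayed within 1.5 times of those reported under each alternative run; the counts of polarity and target genes, of 2-fold changes and of groups without overlap were not recomputed. Members called higher and lower ranged from 15 to 17 and from 6 to 7 when each library was left out in turn, and were 12 and 6 with a filter at a mean of 5 CPM and 16 and 7 with DESeq2. With no filter beyond 1 count they were 18 and 7. With the replicate number as a block 17 members were higher and 7 lower. Whether the numbers pair the samples is not stated. Same-numbered libraries had correlations of -0.03 to 0.07 in their deviations from the group means, which with 3 libraries a group cannot settle it. One alternative, without the pair of libraries nearest to the opposite group, was chosen after seeing the data. Of 24 called members, 21 kept their call and direction in every alternative that tested them; Fzd5, Sfrp1 and Tcf7l2 did not, each at a library left out and Sfrp1 also with DESeq2.

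Directions turned only for genes that did not pass the test. Over the libraries left out in turn the log2 fold change of Axin2 ran from -0.43 to 0.24, of Fzd2 from -0.035 to 0.021, of Lrp6 from -0.066 to 0.066 and of Wif1 from -0.16 to 0.41. Fzd2 was at -0.0071 with DESeq2, -0.0032 with DESeq2 size factors and -0.0023 with no filter. Lrp6 was at 0.0061 with upper quartile factors, 0.00048 with the filter at 5 CPM and 0.048 without that pair of libraries, where Axin2 was at 0.018. The cause was not tested.

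With CPM in place of counts per length, Fzd2 held 58.3% and 44.7% of the frizzled sum in negative control and siRNA_ANK, Wnt9a 78.7% and 44.3% of the ligand sum and Tcf7l1 60.6% and 67.3% of the TCF/LEF sum. In the siRNA_ANK libraries Wnt5a then held 26.7%, 30.5% and 31.8% of the ligand sum and Wnt4 9.29% ± 2.05 (SD, n = 3), the reverse of their order per length; these changes follow from gene length. Depth limits the members under about 1 CPM.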
